A study of Gallus gallus with 4 samples.

Results

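The 10 genes described here belong to the melatonin and dopamine systems of the chick retina, and were followed across 4 pools of retina dissected together with choroid. The melatonin genes were AANAT, ASMT, TPH1, MTNR1A and MTNR1B, and the dopamine genes were TH, DDC, GCH1, DRD2 and DRD4. Members were chosen by name, and a probe was counted as a member where its RefSeq accession belongs to one of these genes. That gave 15 probes for 8 of the 10 genes, among 4807 named genes with a usable probe. No probe was matched to MTNR1B or DDC, so these 2 genes were not analysed here. Of the 15 probes, 14 were well above background on all 4 arrays, and all 8 genes kept at least 1 such probe.

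Chicks wore a glass goggle over the right eye, which induces myopia, from day 6 after hatching, while the left eye stayed uncovered. The goggle was worn for 7 days with 12 hours of light a day, under violet or normal light, and tissue was taken on day 13. The 4 pools were the covered eyes of the violet-light chicks, the covered eyes of the normal-light chicks, the uncovered eyes of the violet-light chicks and the uncovered eyes of the normal-light chicks, each of them RNA of 4 eyes mixed before labelling and read on 1 array. The 16 eyes came from 8 chicks. Both eyes of a chick saw the same light, so the covered and uncovered pools of a light hold fellow eyes of the same chicks, while the violet-light and normal-light pools come from different chicks. By the scanner labels the goggle comparisons thus share chicks and the light comparisons do not, and mixing the RNA removed the means to match eyes within a pool. The hour of collection is not given in the labels, which matters for genes with a daily rhythm.

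With 1 array a pool there is no replicate error and no p-value. A pair of error measures inside the arrays stands in its place. The first is the scanner program's own error estimate for each signal, which gives a log2 difference of a member probe well above background on all 4 arrays an error of 0.20 to 0.26. The second is the spread of 43 probes printed repeatedly on each array, whose log2 differences had a standard deviation of 0.082 to 0.088. Neither covers differences between animals, and no difference below was tested against those. A difference is called beyond the scanner error where it exceeds 1.96 times that error.

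The labels of 2 of the pools are disputed. The authors deposited both scanner files and a normalized value table. The table column headed uncovered normal light matched the scanner file labelled covered violet light (correlation 0.99921 on the log2 scale) better than its own (0.98151), and the column headed covered violet light matched the scanner file labelled uncovered normal light (0.99974) better than its own (0.98178). The labels of the covered normal-light and uncovered violet-light pools are shared by both sources. The labels used here are those of the scanner files, except where a sentence names the table's. By the scanner labels signals were also dimmer in the covered pools before scaling, with a 75th percentile of 883.0 and 797.5 in the covered violet-light and covered normal-light pools, against 1324.9 and 2108.5 in the uncovered violet-light and uncovered normal-light pools. With the table's labels the arrays of 883.0 and 2108.5 trade names, and the covered pools are then the dimmest and the brightest.

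As background, retinal melatonin is made in photoreceptors, mostly at night. TPH1 hydroxylates tryptophan, DDC turns the product into serotonin, AANAT acetylates serotonin, and ASMT adds the last methyl group. MTNR1A and MTNR1B are melatonin receptors. Dopamine is the light-phase counterpart. It is made in a small class of amacrine cells, where TH, the rate-limiting enzyme, turns tyrosine into L-DOPA and DDC turns that into dopamine, while GCH1 starts the synthesis of tetrahydrobiopterin, the cofactor of both TH and TPH1. DRD2 and DRD4 are receptors of the D2 class, and DRD4 is known as a receptor of photoreceptors. Melatonin and dopamine restrain each other's release in the retina, and retinal dopamine is known to be lower in chick eyes deprived of form vision.

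The TH signal was low in a single pool, that of covered eyes under normal light. Levels are given here as log2 signal minus the 75th percentile of the same array. TH stood at -2.31 in covered violet light and -3.45 in covered normal light, and at -2.26 in uncovered violet light and -2.29 in uncovered normal light. The 3 other pools thus lay within 0.05 of each other. Under normal light TH was 2.24-fold lower in covered than uncovered eyes (log2 difference -1.17, scanner error 0.21), and in covered eyes it was 2.21-fold higher under violet than normal light (1.14, error 0.21). Under violet light the goggle difference was -0.05 (error 0.20), and in uncovered eyes the light difference was 0.03 (error 0.20). The goggle difference under violet light minus that under normal light was 1.11 for TH, with a scanner error of 0.29, and 20 of 4807 genes had a more positive value. Genes at least 2-fold more positive under violet light made up 0.707% of all genes.

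Because the low pool is one whose label is shared, the TH pattern reads alike under the table's labels. There the goggle difference of TH was -1.14 under normal light and -0.03 under violet light, and the violet-light difference was 1.17 in covered and 0.05 in uncovered eyes. Between the 2 pools of shared label, covered normal light against uncovered violet light, TH was 2.29-fold lower (-1.19, error 0.21). The probe is dim, with a processed signal of 177.8, 72.77, 276.7 and 431.6 in the order covered violet, covered normal, uncovered violet and uncovered normal light. After normexp background correction, which adds an offset to all signals, the goggle difference of TH under normal light was -0.57 and the violet-light difference in covered eyes was 0.72, so TH no longer reached 2-fold.

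**Figure D1:**
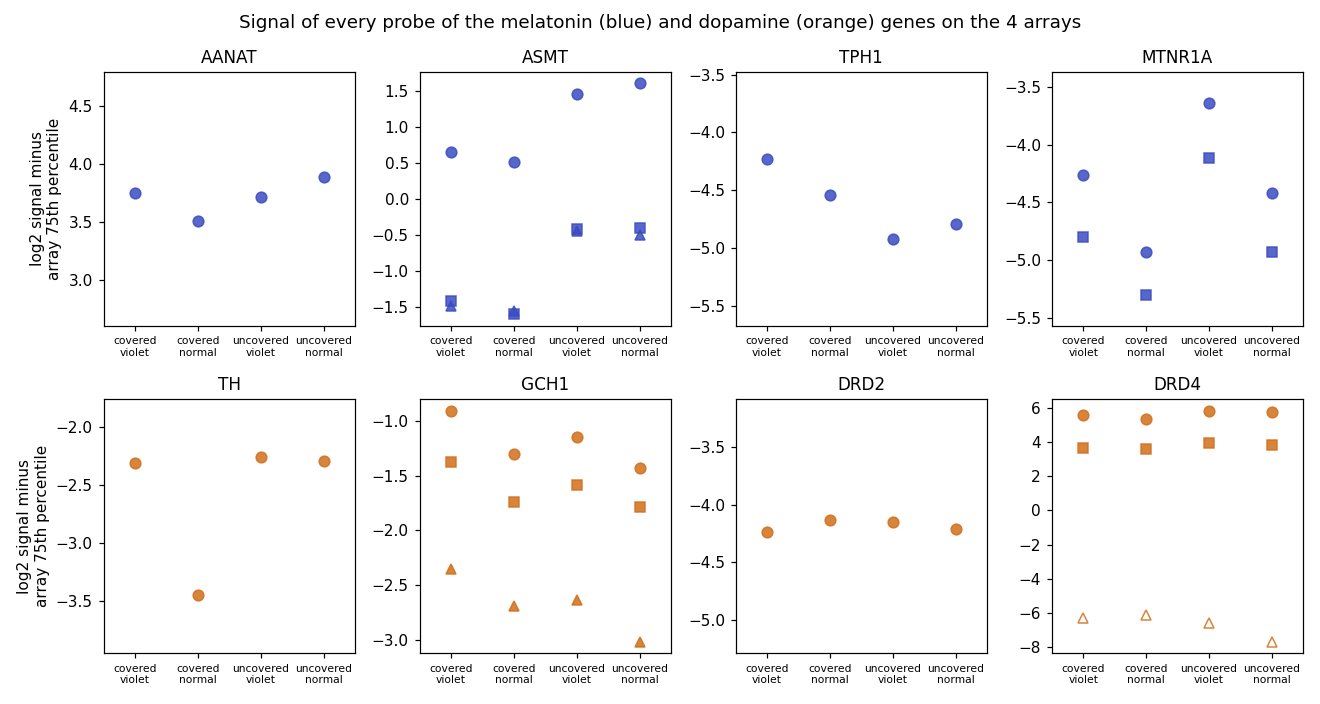
Log2 signal minus the array's 75th percentile (y axis, its position set per gene) of each of the 15 member probes in the 4 pools (x axis), with blue points for melatonin genes, orange points for dopamine genes, a symbol for each probe of a gene and an open symbol for the DRD4 probe not well above background on every array. TH is low in the covered normal-light pool, and all 3 ASMT probes are lower in both covered pools.

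TH RNA in a tissue pool is the product of how many dopaminergic cells it holds and how much TH RNA each makes, and fewer cells and less RNA per cell cannot be told apart here. The other amacrine markers, taken as a list, did not share the TH pattern. Of 7 amacrine markers asked for, 5 were measured, all above background, and their summed signal in units of the 75th percentile was 72.0 and 72.8 in covered violet and covered normal light, against 73.0 and 64.4 in uncovered violet and uncovered normal light. Their median difference was 0.05 for the goggle under normal light and 0.04 for violet light in covered eyes. In the first comparison single genes stood at -0.62 (TFAP2A), -0.46 (TFAP2B), 0.05 (CALB2), 0.49 (GAD1) and 1.11 (SLC6A9). In the second, TFAP2A and TFAP2B stood at 0.20 and 0.04. The sum rests mostly on GAD1 and CALB2, with levels of 5.13 and 4.88 in covered normal light. The list covers amacrine cells at large and does not single out the dopaminergic class. The covered normal-light pool also held the highest striated muscle signal. The 6 of 7 muscle markers measured summed to 1.81 and 20.8 in covered violet and covered normal light, against 0.461 and 0.534 in uncovered violet and uncovered normal light. The part of muscle tissue in the TH difference was not tested. All measured markers of photoreceptors, retinal pigment epithelium and endothelium were well above background, and so were all those of striated muscle, lens and erythroid cells. As 83.07% to 85.97% of all probes were well above background, this does not identify the tissue. For the goggle under normal and violet light, median differences were 0.38 and 0.07 for 6 pigment epithelium markers, 0.05 and 0.02 for 5 endothelium markers, 1.55 and -2.47 for 6 lens markers, and -0.02 and 0.13 for 3 erythroid markers. For violet light in covered and uncovered eyes they were -0.23 and 0.08, -1.78 and -1.51, -0.59 and 3.56, and -0.28 and -0.37, in the same order of lists. By the scanner labels the endothelium median was thus lower under violet light in both eyes. KDR, the brightest of the 5 markers, differed by only -0.14 and -0.11 in covered and uncovered eyes. The summed endothelium signal was 4.27 and 5.38 in covered violet and covered normal light, against 4.20 and 5.57 in uncovered violet and uncovered normal light. With the table's labels the endothelium light medians were -0.05 and -0.02 in covered and uncovered eyes. The endothelium goggle medians were then 1.78 and 1.51 under normal and violet light. The MTNR1A differences given later keep their direction under both sets of labels, and the part of endothelium in them was not tested.

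**Figure D2:**
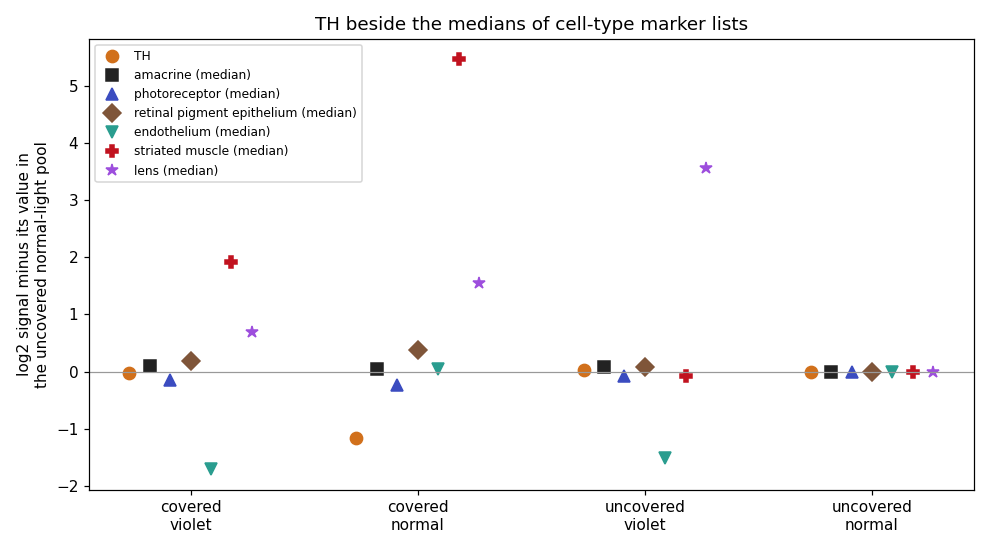
Log2 signal minus its value in the uncovered normal-light pool (y axis) for TH and for the medians of 6 cell-type marker lists, in the 4 pools (x axis, points offset sideways within a pool). TH lies at -1.17 in the covered normal-light pool while the amacrine median lies at 0.05, and the striated muscle median is highest in that pool at 5.47.

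ASMT, the last enzyme of melatonin synthesis, was lower in covered eyes in both lights by the scanner labels. Its brightest probe stood at 0.66 in covered violet light and 0.52 in covered normal light, against 1.46 in uncovered violet light and 1.61 in uncovered normal light. The covered and uncovered pools did not overlap for any of the 3 probes, which is common on these arrays: 61.5% of all named genes did not overlap between covered and uncovered pools, and 26.6% were lower in both covered pools. The goggle difference of this ASMT probe was -1.09 under normal light (2.12-fold) and -0.80 under violet light (1.74-fold), with an error of 0.20 each. Over all 3 ASMT probes it ran from -1.20 to -1.04 under normal light and from -1.06 to -0.80 under violet light. Light made little difference to ASMT, with 0.14 in covered and -0.15 in uncovered eyes, both within the scanner error.

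The reading of ASMT turns on the labels. Under the table's labels the goggle differences of ASMT were -0.14 under normal and 0.15 under violet light, while the violet-light difference was 1.09 in covered and 0.80 in uncovered eyes. The same arrays then read as higher ASMT under violet light rather than lower ASMT under goggles. Between the pools of shared label ASMT was lower in covered normal light than in uncovered violet light by -0.94 (1.92-fold), a comparison in which goggle and light differ together and cannot be told apart. The other ASMT probes gave -1.18 and -1.11 there, both past 2-fold. Photoreceptors are the cells that make ASMT. Of 10 photoreceptor markers asked for, 5 were measured, and their summed signal in units of the 75th percentile was 279.0 and 257.0 in covered violet and covered normal light, against 296.0 and 250.0 in uncovered violet and uncovered normal light. CNGA3, a cone channel subunit, had goggle differences of -1.05 and -1.0 under normal and violet light and light differences of -0.01 and -0.07 in covered and uncovered eyes, close to those of ASMT. PDE6C, the cone phosphodiesterase, had -0.88 and -0.62 for the goggle and 0.08 and -0.18 for light. The goggle differences of the other 3 markers ran from -0.22 to 0.22 under normal light and from -0.46 to 0.20 under violet light, and the medians over all 5 were -0.22 and -0.46. CNGA3, like ASMT, was instead higher under violet light with the table's labels (1.05 in covered eyes, 1.0 in uncovered eyes). The part of photoreceptors in the ASMT difference was not tested.

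AANAT, the rhythmic enzyme of melatonin synthesis, differed far less than ASMT. Its 1 probe stood at 3.75 and 3.51 in covered violet and covered normal light, against 3.72 and 3.89 in uncovered violet and uncovered normal light. The goggle difference was -0.38 under normal light and 0.04 under violet light, and the light difference was 0.25 in covered and -0.17 in uncovered eyes (error 0.20 each). None of these 4 AANAT differences was beyond the scanner error. For the goggle under normal light this depended on the processing. Over the alternatives that keep the scanner labels, that AANAT difference ran from -0.71 to -0.36. The value of -0.71 came with median scaling, where the all-gene median was -0.30, and is beyond the scanner error. After normexp correction the AANAT difference was -0.43, also beyond that error, where the all-gene median was 0.08. TPH1, which starts the pathway, stood at -4.23 and -4.54 in covered violet and covered normal light, against -4.92 and -4.79 in uncovered violet and uncovered normal light. It was higher in covered eyes by 0.69 under violet light (1.61-fold, error 0.22), beyond the scanner error, and by 0.24 under normal light, within it. By these labels the 3 measured synthesis enzymes differed in direction for the goggle under violet light, with -0.80 for ASMT, 0.04 for AANAT and 0.69 for TPH1. By the table's labels they were alike there, at 0.15 for ASMT, 0.17 for AANAT and 0.13 for TPH1, and the contrast between them lay in the light difference in uncovered eyes, at 0.80 for ASMT, -0.04 for AANAT and -0.69 for TPH1. The TPH1 probe is dim, with processed signals of 34.18 to 76.36, and after normexp correction its goggle difference was 0.77 under normal and 0.57 under violet light. Under normal light its sign depended on the processing. There it was -0.19 with quantile normalization, -0.08 with median scaling and -0.17 in the authors' table with matched columns. By the table's labels it was -0.32.

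The melatonin receptor MTNR1A spanned the widest range of the 8 genes, 1.29 on the log2 scale. Its brighter probe stood at -4.26 and -4.93 in covered violet and covered normal light, against -3.64 and -4.42 in uncovered violet and uncovered normal light. MTNR1A was thus highest in uncovered eyes under violet light and lowest in covered eyes under normal light, with the 2 pools of disputed label between them, 0.16 apart and within the scanner error of each other. It was lower in covered eyes, by -0.51 under normal light (error 0.23) and -0.62 under violet light (error 0.21). It was higher under violet light, by 0.67 in covered eyes (error 0.23) and 0.78 in uncovered eyes (error 0.21). The second MTNR1A probe gave -0.36 and -0.68 for the goggle and 0.49 and 0.81 for the light, in the same order. Of these, -0.36 (error 0.25) and 0.49 (error 0.26) were not beyond the scanner error.

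All 4 MTNR1A directions were the same under both sets of labels. With the table's labels the goggle differences of MTNR1A were -0.67 under normal and -0.78 under violet light, and the violet-light differences were 0.51 in covered and 0.62 in uncovered eyes. Between the pools of shared label MTNR1A was 2.44-fold lower in covered normal light than in uncovered violet light (-1.29, error 0.23), and 17 of the 4807 genes had a more negative value. Both MTNR1A probes are dim, with processed signals from 20.31 to 106.3. After normexp correction the goggle difference of MTNR1A under normal light turned to 0.35 and that under violet light was -0.12, while the light differences stayed positive at 0.24 and 0.71 and the difference between the pools of shared label was -0.37.

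GCH1, which makes the cofactor of TH and TPH1, did not share the TH pattern. Its brightest probe stood at -0.91 and -1.30 in covered violet and covered normal light, against -1.15 and -1.43 in uncovered violet and uncovered normal light. The goggle difference of GCH1 was 0.13 under normal light and 0.24 under violet light, and the light difference was 0.39 in covered and 0.27 in uncovered eyes (error 0.20 each). All 3 GCH1 probes were higher under violet light in both eyes, from 0.34 to 0.39 in covered and from 0.20 to 0.38 in uncovered eyes, but none of these differences was beyond the scanner error. Under the table's labels GCH1 was lower under violet light, with differences of -0.13 (covered eyes) and -0.24 (uncovered eyes). Its goggle differences also changed sign with those labels, to -0.39 under normal and -0.27 under violet light.

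Of the dopamine receptors, DRD2 differed least of all 8 genes. DRD2, also the autoreceptor of dopaminergic cells, stood at -4.24 and -4.13 in covered violet and covered normal light, against -4.15 and -4.21 in uncovered violet and uncovered normal light, a range of 0.11 that is smaller than the scanner error of 0.22. The DRD2 probe is dim, with processed signals from 45.46 to 113.8, and after normexp correction its goggle difference was 0.67 under normal and 0.26 under violet light. In the same order it was -0.36 and -0.24 with quantile normalization, and -0.25 and -0.19 with median scaling, so the sign of this DRD2 difference depended on the processing. DRD4 stood at 5.59 and 5.37 in covered violet and covered normal light, against 5.83 and 5.76 in uncovered violet and uncovered normal light, by its brightest probe. Its goggle difference was -0.39 under normal and -0.24 under violet light, and the second passing probe gave -0.25 and -0.29. Both DRD4 probes were thus lower in covered eyes in both lights by the scanner labels, and none of these differences was beyond the scanner error (0.20 each). Under normal light the DRD4 goggle difference depended on the processing. It was -0.71 with median scaling, where the all-gene median was -0.30. With quantile normalization it was -0.54 and after normexp correction -0.46. All of these were beyond the scanner error. The DRD4 difference was -0.32 with the mean of probes and -0.38 in the authors' table with matched columns, both within that error. By the table's labels the brightest DRD4 probe differed by -0.22 and -0.08 for the goggle under normal and violet light, and by 0.39 and 0.24 for violet light in covered and uncovered eyes. Between the pools of shared label DRD4 was lower in covered normal than in uncovered violet light by -0.46 (1.38-fold, error 0.20), which is beyond the scanner error. The third DRD4 probe was near background, at -6.29, -6.09 and -6.55 in covered violet, covered normal and uncovered violet light. It was not well above background in uncovered normal light. Its processed signals were close before scaling, at 11.74 in covered normal and 10.41 in uncovered normal light. After scaling, its goggle difference under normal light was 1.58 (scanner error 0.5), opposite in sign to the other DRD4 probes. Because the uncovered signal was not well above background, this difference sets neither a size nor a direction. The probe was left out of the gene's value.

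**Figure D3:**
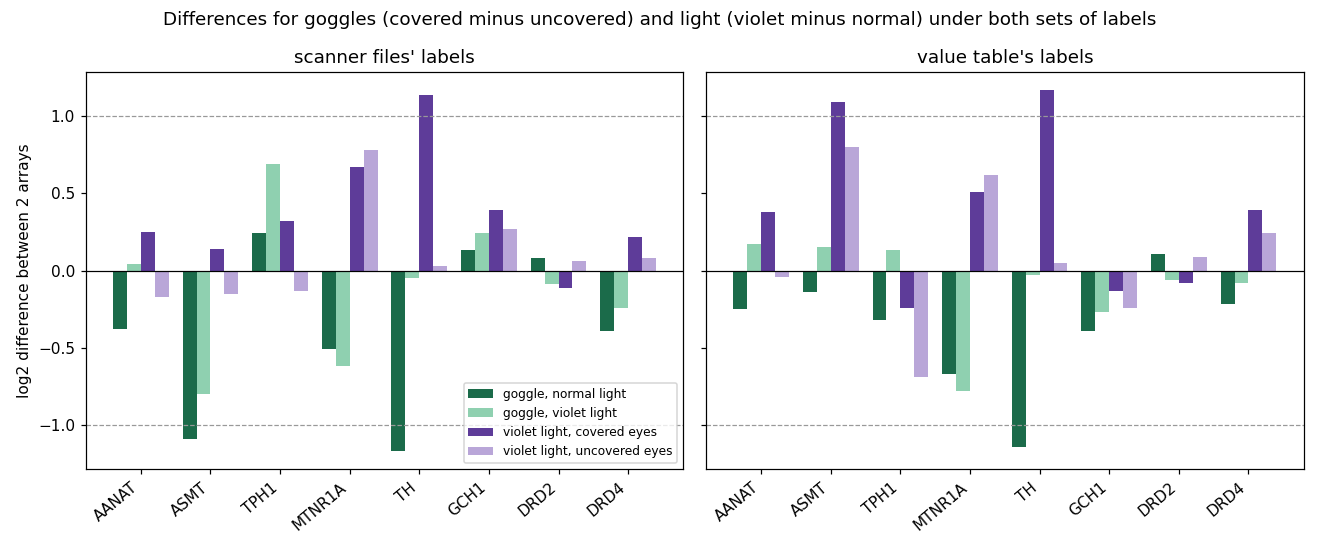
Log2 difference between 2 arrays (y axis) for each of the 8 genes (x axis), with bars for the goggle in each light (covered minus uncovered, greens) and for light in each eye (violet minus normal, purples), under the scanner files' labels (left) and the value table's labels (right); dashed lines mark 2-fold. TH and MTNR1A keep their pattern in both panels, while the ASMT bars move from the goggle at -1.09 and -0.80 to the light at 1.09 and 0.80.

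Counted over the 8 genes, the goggle under normal light put 2 at least 2-fold lower (ASMT and TH) and 0 higher, where 6.12% of all named genes were 2-fold apart in either direction and 1.41% were lower. Under violet light 0 of 8 reached 2-fold for the goggle, against 1.08% of all genes. For violet light in covered eyes 1 of 8 was 2-fold higher (TH), against 2.35% in either direction, and only 4 of 4807 genes (0.0832%) were 2-fold higher. TH ranked 4805 of 4807 from the lowest in that comparison. For violet light in uncovered eyes 0 of 8 reached 2-fold, against 2.91% of all genes. Between the pools of shared label 2 of 8 were 2-fold lower in covered normal light (TH and MTNR1A), against 3.18% in either direction and 0.686% lower. This last count depended on the processing. ASMT also passed 2-fold there with median scaling (-1.09) and the mean of probes (-1.08). After normexp correction no member reached 2-fold there, with TH at -0.68, MTNR1A at -0.37 and ASMT at -0.94. The same 4 arrays enter all of these comparisons, so the counts are not independent of each other.

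Set side by side, both the melatonin and the dopamine list had negative goggle medians by the scanner labels. Under normal light the median goggle difference was -0.45 over the 4 melatonin genes and -0.15 over the 4 dopamine genes, against 0.02 over all genes. Under violet light these medians were -0.29 and -0.07, against 0.04 over all genes. In each light the spread inside a list was wider than the gap between the lists, with melatonin genes from -1.09 to 0.24 and dopamine genes from -1.17 to 0.13 under normal light. After normexp correction the medians under normal light were -0.04 and -0.12, which turned the order of the lists, and under violet light they were -0.07 and 0.14, of opposite sign. The table's labels gave goggle medians of -0.28 and -0.30 under normal light, and under violet light 0.14 for melatonin genes (3 of 4 higher) and -0.07 for dopamine genes (0 of 4 higher). Over all genes these labels gave medians of -0.02 under normal and 0.01 under violet light. Whether the lists differ in sign for the goggle under violet light thus turns on the labels and on the background correction.

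Both lists had positive medians for light in covered eyes, while in uncovered eyes their signs depended on the scaling and the labels. Violet minus normal light in covered eyes gave medians of 0.28 for melatonin genes and 0.30 for dopamine genes, against 0.02 over all genes. There 7 of the 8 genes were higher, but only 2 of them beyond the scanner error (TH and MTNR1A), and DRD2 stood at -0.11. The shares of all named genes that were higher or beyond the error were not counted, so such counts are descriptions. The higher members lay above 85.0% (ASMT) to 99.9% (TH) of all named genes. By the table's labels these medians were 0.45 and 0.15, against -0.02 over all genes, with 5 of the 8 genes higher. In uncovered eyes, by the scanner labels, the medians were -0.14 and 0.07, against -0.01 over all genes. There 1 of 4 melatonin genes (MTNR1A) and 4 of 4 dopamine genes were higher. Those 4 dopamine genes ran from 0.03 to 0.27, all within the scanner error. They lay above 55.5% (TH) to 83.2% (GCH1) of all named genes. Both medians in uncovered eyes were negative under quantile normalization (-0.17 and -0.12), median scaling (-0.31 and -0.11) and the authors' table with matched columns (-0.16 and -0.05), and both were positive by the table's labels (0.29 and 0.07). The dopamine median minus the melatonin median was 0.29 and 0.22 for the goggle under normal and violet light, and 0.02 and 0.21 for violet light in covered and uncovered eyes. With the table's labels it was -0.02, -0.21, -0.29 and -0.22 in the same order. The order of the lists thus depends on which labels are right. In covered normal minus uncovered violet light, the pools of shared label, the medians were -0.57 for melatonin and -0.30 for dopamine genes. Over all genes the median was 0.03. After normexp correction the melatonin genes stood there at -0.25 (AANAT), -0.94 (ASMT), 0.60 (TPH1) and -0.37 (MTNR1A). The dopamine genes then stood at -0.68 (TH), -0.10 (GCH1), 0.35 (DRD2) and -0.50 (DRD4), so the gap between the medians nearly closed.

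**Figure D4:**
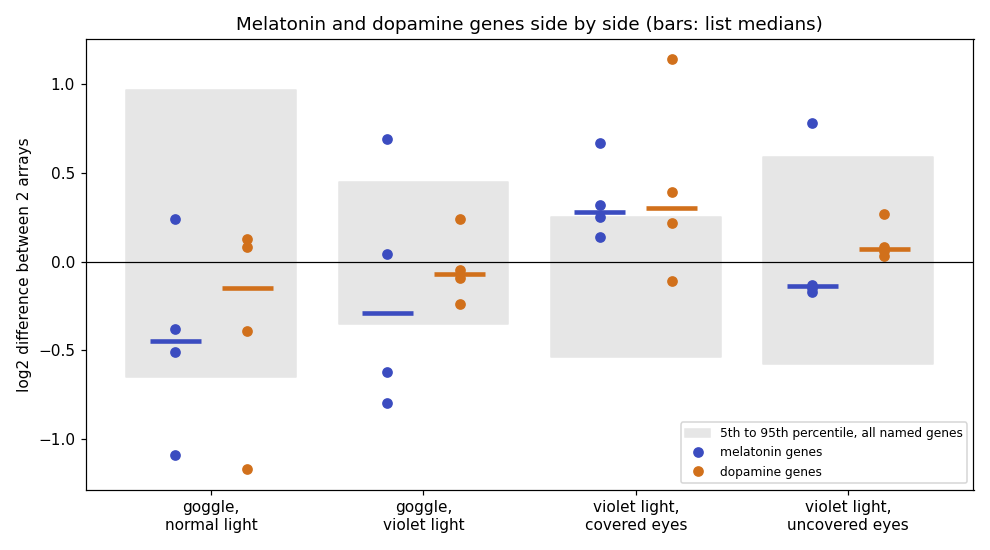
Log2 difference between 2 arrays (y axis) for the goggle in each light and for violet light in each eye (x axis), with a point for each of 4 melatonin genes (blue) and 4 dopamine genes (orange), a bar for each list's median, and a grey band from the 5th to the 95th percentile of all named genes. Under normal light ASMT and TH lie below the band. Under violet light ASMT (-0.80) and MTNR1A (-0.62) lie below it and TPH1 (0.69) above it. In covered eyes TH (1.14), MTNR1A (0.67), GCH1 (0.39) and TPH1 (0.32) lie above it, and in uncovered eyes MTNR1A (0.78) does.

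Other genes of the pathways were measured more sparsely. Of 20 further melatonin pathway genes asked for, 11 had a probe and 9 passed. MAOA, which breaks down serotonin and dopamine, was lower by -1.04 for the goggle under normal light and by -0.41 under violet light. With the table's labels the goggle differences of MAOA were 0.03 and 0.66, and its violet-light differences were 1.04 (covered eyes) and 0.41 (uncovered eyes). TPH2, the second tryptophan hydroxylase, differed by 0.19 and 0.00 for the goggle, and OTX2, a transcription factor of photoreceptors, by 0.13 and 0.23. Medians over the 9 genes were 0.13 and 0.00 for the goggle under normal and violet light, and -0.03 and 0.09 for violet light in covered and uncovered eyes.

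Of 24 further dopamine pathway genes, 7 had a probe and all 7 passed. GCHFR, the regulator that binds GTP cyclohydrolase, was lower for the goggle by -1.14 under normal and -0.31 under violet light, and its violet-light difference was 0.39 in covered against -0.43 in uncovered eyes. For GCHFR the table's labels gave goggle differences of -0.39 and 0.43 and violet-light differences of 1.14 (covered eyes) and 0.31 (uncovered eyes). DRD1, the main receptor of the D1 class, was higher for the goggle by 0.61 and 0.39, whereas the table's labels gave -0.10 and -0.31. Of the enzymes that recycle tetrahydrobiopterin, QDPR stayed closer to 0 for the goggle, at 0.15 and 0.11. PCBD1 stood at -0.44 under normal light (error 0.20), beyond the scanner error, and at -0.13 under violet light. The table's labels gave PCBD1 goggle differences of -0.16 and 0.16, and violet-light differences of 0.44 (covered eyes) and 0.13 (uncovered eyes). List medians were -0.26 and 0.11 for the goggle under normal and violet light, and 0.10 and -0.16 for violet light in covered and uncovered eyes. In each list 1 gene (MAOA of 9, GCHFR of 7) was at least 2-fold lower for the goggle under normal light, where 1.41% of all named genes were lower and 6.12% were apart in either direction, and 0 were in the 3 other comparisons of goggle or light. By the table's labels neither was 2-fold apart for the goggle, and the same pair was 2-fold higher for violet light in covered eyes, where 6.12% of all named genes were 2-fold apart.

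The genes whose profile over the 4 arrays lay closest to a member were found for the 2 members of widest range, by the root mean square difference of log2 levels centred on their mean. For MTNR1A these were UBAP1L (0.130), the growth factor BMP4 (0.166), the transcription factor MAFF (0.180), the defensin AvBD4 (0.189) and the chemokine CCL20 (0.203), where the median over all 4806 other genes was 0.49. For TH, whose range was 1.19, they were BMP4 (0.220), WNT11B (0.233), LOC431323 (0.257), the amino acid transporter SLC38A4 (0.264) and CRPL1 (0.273), with a median of 0.52 over all other genes. BMP4 thus stood on both lists, with levels of -4.40 and -5.45 in covered violet and covered normal light, against -4.19 and -4.79 in uncovered violet and uncovered normal light. MTNR1A itself ranked 25 among the profiles closest to TH, and DRD4 ranked 82. BMP4, AvBD4, CCL20, WNT11B and SLC38A4 were dim as well, at -3.40 or below on every array, so low signal limits them as it does TH and MTNR1A. UBAP1L, at -3.24 to -2.04, was about as dim as TH, at -3.45 to -2.26. MAFF, LOC431323 and CRPL1 were brighter. These likenesses rest on 4 arrays and are descriptions.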

How the data were processed

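The members and gene lists were chosen with earlier results of these data known. Agilent Feature Extraction 11.5.1.1 produced the scanner files from 1-colour scans, per the submitters' processing notes, and per the file headers the deposited intensity per spot is background-subtracted and detrended, not scaled between arrays. The intensity values in the table that the authors deposited were normalized by a method not given in the sources used here, with column medians of 218.35 to 218.67. Its scale is linear and uncentred, judged against the scanner files. Each group is 1 array, so no p-value was computed. In Python 3.11.15, 43803 spots that are not controls were averaged to 43603 probes, and 26 with an outlier mark were left out. Values are log2 of the signal minus the array's 75th percentile. Probes were named through RefSeq accessions of assembly GRCg7b: 11711 have 1 gene symbol, 0 several and 31892 none. A gene takes its probe of highest mean signal among those well above background on all 4 arrays. No spot was saturated, and 83.07% to 85.97% of probes were well above background. Named genes are all members, other pathway genes that reached 2-fold or have a stated role, the marker lists, and the 5 profiles closest to each of the 2 members of widest range. The number of arrays limits the precision. Alternatives were quantile normalization and normexp with an offset of 50 (limma 3.58.1, R 4.3.3; on median signals, since the files give no mean signal), median scaling, the mean of probes, no filter, the authors' table and its labels.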

Additional observations from a re-analysis of the deposited data

How the results depend on the processing

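Under quantile normalization, median scaling, the mean of probes, no filter on dim probes and the authors' table with matched columns, each of the 4 counts of members 2-fold apart was the same and each dopamine-minus-melatonin median moved by less than the scanner error. After normexp correction, 1 member in place of 2 was 2-fold lower for the goggle under normal light (ASMT) and 0 in place of 1 was higher for violet light in covered eyes, and the dopamine-minus-melatonin median for the goggle under normal light was -0.08. Of all named genes, 6.49% and 1.14% were then 2-fold apart in either direction for that goggle and that light comparison. For the goggle under normal light, normexp moved the differences of the dim probes upward. TH went from -1.17 to -0.57, MTNR1A from -0.51 to 0.35, DRD2 from 0.08 to 0.67 and TPH1 from 0.24 to 0.77. The TH difference thus narrowed while that of DRD2 widened. Normexp was run with an offset of 50, which is added to every signal. In covered and uncovered normal light the processed signals were 72.77 and 431.6 for TH, and 45.46 and 113.8 for DRD2. The 75th percentiles of these arrays were 797.5 and 2108.5, so an equal offset weighs more on the covered array after scaling. The part of the offset in each shift was not tested separately. With the value table's labels, 1 member (TH) was 2-fold apart for the goggle under normal light and 2 (ASMT and TH) for violet light in covered eyes. Of all named genes, 2.35% and 6.12% were then 2-fold apart in these comparisons. With those labels the median gaps were -0.02 and -0.21 for the goggle under normal and violet light. For violet light in covered and uncovered eyes they were -0.29 and -0.22. Of 32 differences of single members, 20 kept their sign over the alternatives that keep the scanner labels and 12 did not. Those of ASMT for the goggle ran from -1.41 to -1.04 under normal light and from -0.95 to -0.79 under violet light, and that of TH under normal light from -1.50 to -0.57. Over all named genes, 226 were 2-fold higher and 68 lower for the goggle under normal light, but 118 and 139 with quantile normalization, 102 and 211 with median scaling, where the all-gene median was -0.30, and 281 and 31 after normexp correction. Low signal limits TPH1, MTNR1A, DRD2 and TH most. No paired analysis was possible because the labels give no replicate numbers and each group is 1 array, in which single eyes of 4 chicks were mixed.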
